A study of Mus musculus with 6 samples.

Results

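The matrix metalloproteinase cluster of mouse chromosome 9 was followed through 6 RNA-seq libraries. Its 8 genes Mmp13, Mmp12, Mmp3, Mmp10, Mmp8, Mmp27, Mmp20 and Mmp7 were taken as the rows of those names among 53546 rows of gene counts. All 8 rows lay on exons of their own gene in GRCm38 (99.4% to 100% of the row length) and all 8 were kept, which holds for 1740 of all rows. The libraries are labelled as intervertebral disc of C57BL/6 mice, 3 wild type and 3 with intervertebral disc degeneration, and the labels do not say how the degeneration arose or whether the libraries of a group come from separate animals. No age stands in the sample labels. The text on the series as a whole speaks of retinal RNA of mice aged 21 days, at odds with the tissue of the samples' own labels, from which the groups were taken. P-values therefore reflect how far these libraries differ among themselves, and the labels do not say whether that spread lies between animals. In degeneration the spread includes the split in heart muscle and kidney tubule genes given below.

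Matrix metalloproteinases are zinc-dependent proteases that cut proteins of the extracellular matrix. They are made as inactive precursors, activated when a propeptide is cut off, and held in check by tissue inhibitors (the Timp proteins). The cluster holds the collagenases Mmp8 and Mmp13, the stromelysins Mmp3 and Mmp10, which cut proteoglycans and other matrix proteins, the macrophage elastase Mmp12, the matrilysin Mmp7, the enamel protease Mmp20 and the less studied Mmp27. In the disc, Mmp3 and Mmp13 are best known for cutting aggrecan and fibrillar collagen.

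Depth was low, and only some markers of the tissue named in the labels could be located. Heart muscle genes were high in wild type 1 to 3 and degeneration 1, and kidney tubule genes in degeneration 2 and 3. Library totals ran from 3119215 to 4009562 counts, so that 3 counts, used as the floor of detection, stood for 0.748 to 0.962 CPM (the usual scaling of counts by the library total). Of 8 cartilage markers 1 could be located by position, Acan, with 2, 1 and 0 counts in wild type and none in degeneration. Of 7 nucleus pulposus and notochord markers 4 could be located. Krt19 had no count, Noto had at most 1 count in a library, and Krt8 stood at 127 and 125 CPM in degeneration 2 and 3 but at no more than 0.839 CPM in any other library. Cd24a was counted in every library, at 19.5, 34.4 and 35.3 CPM in wild type and 27.4, 352 and 362 CPM in degeneration. The same pair of libraries stood apart in other markers. The summed level of the 4 located of 7 heart muscle genes was 33736 to 36938 CPM in wild type 1 to 3 and degeneration 1, and 38.5 CPM in each of degeneration 2 and 3. That of the 6 located of 8 kidney tubule genes was 33.3 to 49.1 CPM in the first 4 libraries and 10374 and 8252 CPM in degeneration 2 and 3. Results on the tested cluster genes are therefore given also without degeneration 1, and without degeneration 2 and 3, and counts of called genes in other lists also without degeneration 1. In a fit without degeneration 1 the label coincides with this split in markers. Calls in it cannot tell degeneration apart from the difference in heart muscle and kidney tubule genes. For the lists no fit without degeneration 2 and 3 is given. What these markers contribute to a result on the cluster was not tested.

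The genes lie in a row on the plus strand of chromosome 9 (GRCm38). Mmp13 spans 7272514 to 7283331, Mmp12 7344381 to 7369499, and Mmp3 7445822 to 7455975. Then come Mmp10 from 7502352 to 7510240, Mmp8 from 7558456 to 7568485, and Mmp27 from 7571396 to 7581885. Mmp20 spans 7628231 to 7674979 and Mmp7 7692090 to 7699585. The counted rows are the joined exons, UTRs included, of 1068 bases for Mmp7 to 7237 bases for Mmp12. The Mmp12 row shares 157 bases (2.17%) with Mmp1b on the minus strand, and the Mmp7 row 123 bases (11.5%) with AV064505 on the minus strand. Reads were counted without strand, so such pairs cannot be told apart there. Mmp1b had no count in any library.

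Promoters of this family are textbook targets of the transcription factor AP-1 next to a TATA box. All 8 genes matched RefSeq promoters (GRCm38.p6), with 10 start sites in all. In the 250 bases before each start, both strands were searched for TGACTCA or TGAGTCA (one the reverse complement of the other) and for TATAAA, none of which overlap in the matches below. The AP-1 letters stood before 5 of the 10 start sites (1 each in Mmp13, Mmp12, Mmp3, Mmp10 and Mmp7), the TATAAA letters before 5, and both before 4. Over all 32851 promoters of this length the shares were 4.46%, 12.4% and 0.721%. The last 100 bases before the start are shown for 6 genes, to set Mmp3 and Mmp13, which hold the same pair of motifs and differ in their counts, beside Mmp8 and Mmp27, which hold neither. Capitals mark the motifs, and all are from the plus strand.
Mmp3, chr9:7445722-7445821: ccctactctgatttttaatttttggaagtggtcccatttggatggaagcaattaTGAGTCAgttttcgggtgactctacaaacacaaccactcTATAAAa
Mmp13, chr9:7272414-7272513: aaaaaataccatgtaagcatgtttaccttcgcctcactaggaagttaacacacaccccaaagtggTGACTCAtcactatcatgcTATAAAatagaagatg
Mmp10, chr9:7502242-7502341: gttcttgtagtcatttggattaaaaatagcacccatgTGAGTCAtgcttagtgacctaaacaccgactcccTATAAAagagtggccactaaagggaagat
Mmp12, the second of its start sites, chr9:7347274-7347373: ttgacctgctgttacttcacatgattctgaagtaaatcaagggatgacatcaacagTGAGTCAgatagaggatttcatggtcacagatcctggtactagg
Mmp8, chr9:7558329-7558428: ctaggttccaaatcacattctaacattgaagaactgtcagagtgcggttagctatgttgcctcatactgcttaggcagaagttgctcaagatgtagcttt
Mmp27, chr9:7571296-7571395: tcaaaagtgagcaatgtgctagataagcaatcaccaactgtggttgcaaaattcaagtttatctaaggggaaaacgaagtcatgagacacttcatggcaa
The AP-1 letters begin 46 bases before the start of Mmp3, 35 before Mmp13, 63 before Mmp10 and 44 before the second start of Mmp12. A match is a description of letters and not a bound site, and no binding was measured here.

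Mmp3, the stromelysin that also activates other proenzymes of the family, had the highest level of the cluster per length in wild type. Counts of 103, 79 and 25 stood in wild type 1 to 3, and of 15, 0 and 3 in degeneration 1 to 3. As CPM these were 25.7, 22.1 and 7.54 against 4.72, 0 and 0.962, a mean of 18.4 ± 9.61 (SD, n = 3) against 1.89 ± 2.50 (SD, n = 3). Every degeneration library was below every wild type library, but wild type 3 and degeneration 1 were close, and their Wilson 95% intervals of 5.10 to 11.1 CPM and 2.86 to 7.79 CPM overlapped. Degeneration 2 had no count, with a floor of 0.869 CPM and an upper Wilson 95% limit of 1.11 CPM, and degeneration 3 was at its floor.

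Over all 6 libraries the difference in Mmp3 did not pass the test. Its log2 fold change, degeneration over wild type, was -3.39 ± 1.09 (SE), and the quasi-likelihood test of edgeR gave an adjusted p of 0.258 (0.0193 before the Benjamini-Hochberg adjustment over all rows). None of 14967 rows tested had an adjusted p under 0.05 (0.0% called), while 2596 had an unadjusted p under 0.05, 970 of them lower in degeneration (6.48%). limma-trend called 0 rows as well and DESeq2 called 969 of 17476 (5.54%), without Mmp3 (adjusted p 0.0805). Without degeneration 1 the log2 fold change of Mmp3 was -5.64 ± 0.77 (edgeR adjusted p 5.1e-05), in a fit that called 50.4% of its 17272 rows (24.5% lower). Without degeneration 2 and 3 it was -1.89 ± 0.67 with an adjusted p of 0.809, in a fit that called 2 of 15997 rows (0.0125%) and in which the lone degeneration library is assumed to vary like wild type.

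**Figure D1:**
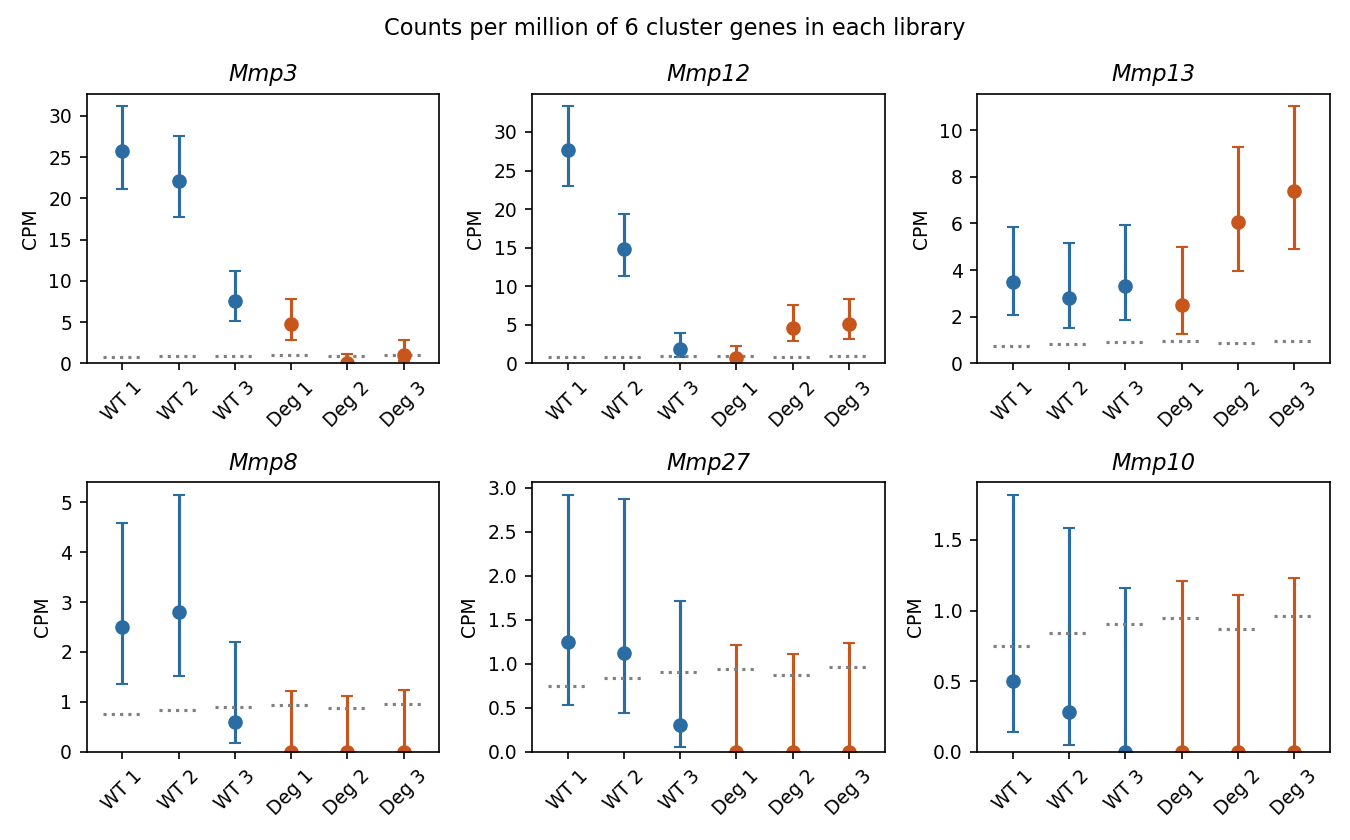
CPM of 6 cluster genes (panels) in each library (x axis; WT, wild type; Deg, degeneration), with Wilson 95% intervals of counting error as bars and the level of 3 counts as a dotted line. Mmp3 runs from 25.7 CPM in wild type 1 to 0 in degeneration 2, Mmp13 is highest in degeneration 2 and 3 (6.08 and 7.37 CPM), and Mmp8 and Mmp27 have no count in degeneration.

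Mmp12, the elastase named for macrophages, varied as much within wild type as between the groups. Its counts were 111, 53 and 6 in wild type and 2, 16 and 16 in degeneration. As CPM these were 27.7, 14.8 and 1.81 against 0.630, 4.64 and 5.13, a mean of 14.8 ± 12.9 (SD, n = 3) against 3.46 ± 2.47 (SD, n = 3). The groups overlapped, since wild type 3 lay below degeneration 2 and 3, and wild type 1 was 15.3 times as high as wild type 3. The log2 fold change was -2.35 ± 0.97 with an adjusted p of 0.287 (edgeR). Leaving out degeneration 1 gave -2.04 ± 0.70 (adjusted p 0.0286), in the same fit that called 50.4% of its rows, and leaving out degeneration 2 and 3 gave -4.42 ± 1.59 (adjusted p 0.809).

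Of 10 macrophage markers 5 could be located, and summed to 269, 225 and 162 CPM in wild type against 162, 135 and 133 CPM in degeneration. Lyz2, the macrophage lysozyme, had 122, 79.1 and 46.7 CPM against 42.5, 6.66 and 10.3 CPM. Csf1r, the receptor for the macrophage growth factor, was at 68.8, 64.9 and 65.1 CPM against 61.1, 114 and 96.8 CPM. None of the 5 was called by edgeR (0.0% of loci called), and their median log2 fold change was -1.25, with 4 of 5 below 0. Without degeneration 1, 3 of the 5 were called lower (Lyz2, C1qc and Mrc1), in a fit that called 53.0% of loci (26.2% lower). What macrophages contribute to the counts of Mmp12 was not tested. In such bulk libraries fewer cells of a type and less RNA per cell cannot be told apart.

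Mmp13, the collagenase with the widest range of substrates in cartilage, was the only member with more than 3 counts in every library. Its counts were 14, 10 and 11 in wild type and 8, 21 and 23 in degeneration. As CPM these were 3.49, 2.80 and 3.32 against 2.52, 6.08 and 7.37, a mean of 3.20 ± 0.362 (SD, n = 3) against 5.33 ± 2.51 (SD, n = 3). Degeneration 1 lay below all wild type libraries and degeneration 2 and 3 above all of them, so the groups overlapped. The log2 fold change was 0.47 ± 0.35 with an adjusted p of 0.484 (edgeR). Leaving out degeneration 1 gave 0.64 ± 0.35 (adjusted p 0.150), and leaving out degeneration 2 and 3 gave -0.26 ± 0.63 (adjusted p 0.945). The higher values thus stood in the libraries with kidney tubule genes. Under the scaling of the test (TMM), whose factors were 1.23 and 1.25 in degeneration 2 and 3 and 0.864 to 0.940 in the other 4, Mmp13 was at 3.75, 3.20 and 3.69 CPM against 2.94, 5.32 and 6.36 CPM.

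Mmp8, the collagenase stored in neutrophil granules, was counted in wild type alone. Its counts were 10, 10 and 2 in wild type, or 2.49, 2.80 and 0.603 CPM, and 0 in all 3 degeneration libraries. Pooled over the group, wild type was at 2.02 CPM, 6.56-fold the level that 3 counts give over the degeneration libraries together (0.308 CPM). Most of the pooled counts came from wild type 1 and 2, and counting error in wild type is not included in this ratio. The groups did not overlap, and the exact permutation test (two-sided) gave p = 0.1, the smallest that 3 against 3 allows. That value follows from the order alone. The gene was chosen for this test by counts above the floor, which only wild type libraries had, so the test adds no support. The row did not pass the count filter of the test. With no count filter its adjusted p was 0.200 (edgeR), and wild type 3 was itself under its floor of 0.904 CPM. Of 10 neutrophil markers 1 could be located, Csf3r, at 10.2, 9.23 and 7.54 CPM in wild type and 5.04, 5.21 and 6.41 CPM in degeneration. It was called lower without degeneration 1 (adjusted p 0.0153, edgeR), in a fit that called 53.0% of loci (26.2% lower). Its part in the counts of Mmp8 was not tested.

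Mmp27 had the same pattern at a lower level, with 5, 4 and 1 counts in wild type (1.25, 1.12 and 0.301 CPM) and 0 in degeneration. Pooled wild type was 2.98-fold the level of 3 counts over the degeneration libraries, with most of its counts from wild type 1 and 2. The exact permutation test (two-sided) again gave p = 0.1, which adds no support for the same reason as in Mmp8. With no count filter the adjusted p was 0.227 (edgeR). Thus 3 of the 8 genes (Mmp3, Mmp8 and Mmp27) had every degeneration library below every wild type library, and none had every one above. For Mmp8 and Mmp27 this order rests on 2 counts and 1 count in wild type 3, at or under the floor, against none, so these libraries are not resolved at this depth. Among all 34300 rows with any count the shares were 5.37% and 8.84%. Among the 14967 rows tested they were 8.65% and 11.2%.

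The other members were at or under the floor in every library. Mmp10, the second stromelysin, had 2, 1 and 0 counts in wild type and none in degeneration, and no fold is given. Mmp7, known from epithelia, had 3 counts in degeneration 2 and none elsewhere, on a row that overlaps another gene. Mmp20, which acts in forming enamel, had 1 count in degeneration 3 and none elsewhere. At this depth a gene with no count may still stand at up to 0.748 to 0.962 CPM, depending on the library.

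Per length, the order of the mean levels differed between the groups, within the spread given here. Mean levels in wild type were 10.2 ± 5.34 CPM per kb for Mmp3, 2.04 ± 1.79 for Mmp12, 1.20 ± 0.135 for Mmp13, 0.810 ± 0.490 for Mmp8 and 0.402 ± 0.232 for Mmp27 (SD, n = 3 each). Mean levels in degeneration were 1.99 ± 0.941 CPM per kb for Mmp13, 1.05 ± 1.39 for Mmp3 and 0.479 ± 0.341 for Mmp12. Mmp3 was above every other member per kb in each wild type library and in degeneration 1. In wild type the step from Mmp12 to Mmp13 was smaller than the SD of Mmp12, and the step from Mmp13 to Mmp8 smaller than the SD of Mmp8. In degeneration the steps from Mmp13 to Mmp3 and from Mmp3 to Mmp12 were smaller than the SD of Mmp3.

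The make-up of the cluster's counts needs no scaling between libraries. The 8 genes together had 245, 157 and 45 counts in wild type (61.1, 43.9 and 13.6 CPM) and 25, 40 and 43 in degeneration (7.87, 11.6 and 13.8 CPM). Mmp3 made up 42.0%, 50.3% and 55.6% of these in wild type and 60% in degeneration 1 (Wilson 95% interval 40.7% to 76.6%). It made up 0% (0% to 8.76%) and 6.98% (2.40% to 18.6%) in degeneration 2 and 3. Mmp13 made up 5.71%, 6.37% and 24.4% in wild type, 32% in degeneration 1 (17.2% to 51.6%), and 52.5% (37.5% to 67.1%) and 53.5% (38.9% to 67.5%) in degeneration 2 and 3. Mmp12 made up 45.3%, 33.8% and 13.3% in wild type and 8%, 40% and 37.2% in degeneration. In its shares degeneration 1 lay near wild type 3, and degeneration 2 and 3 lay near each other.

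**Figure D2:**
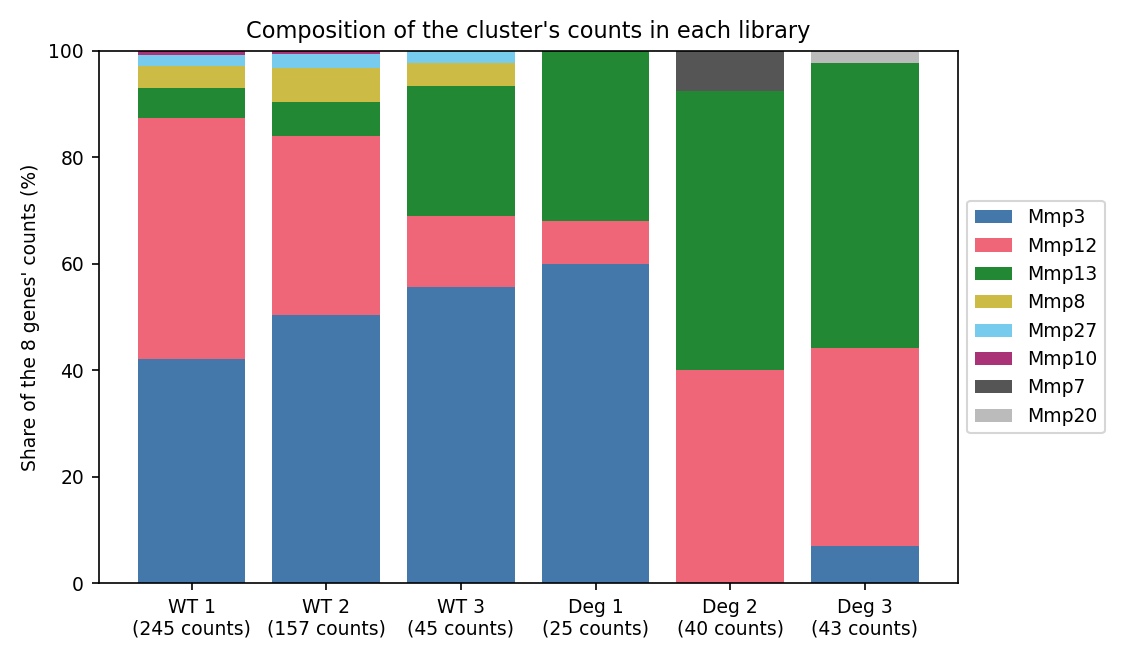
Share of each gene in the summed counts of the 8 genes (y axis, percent) in each library (x axis; WT, wild type; Deg, degeneration), with the summed counts under each bar. Mmp3 takes 42.0% to 60% in wild type and degeneration 1 and at most 6.98% in degeneration 2 and 3, where Mmp13 takes 52.5% and 53.5%.

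Over the tried settings, the sign of Mmp3 and Mmp12 was stable and their calls were not. In 19 fits the log2 fold change of Mmp3 ran from -5.64 to -1.89 and was called in 2, both without degeneration 1. That of Mmp12 ran from -4.42 to -1.65 and was called in the same 2 settings. That of Mmp13 ran from -0.26 to 0.66 and was called in none. The fits share libraries and are not independent.

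**Figure D3:**
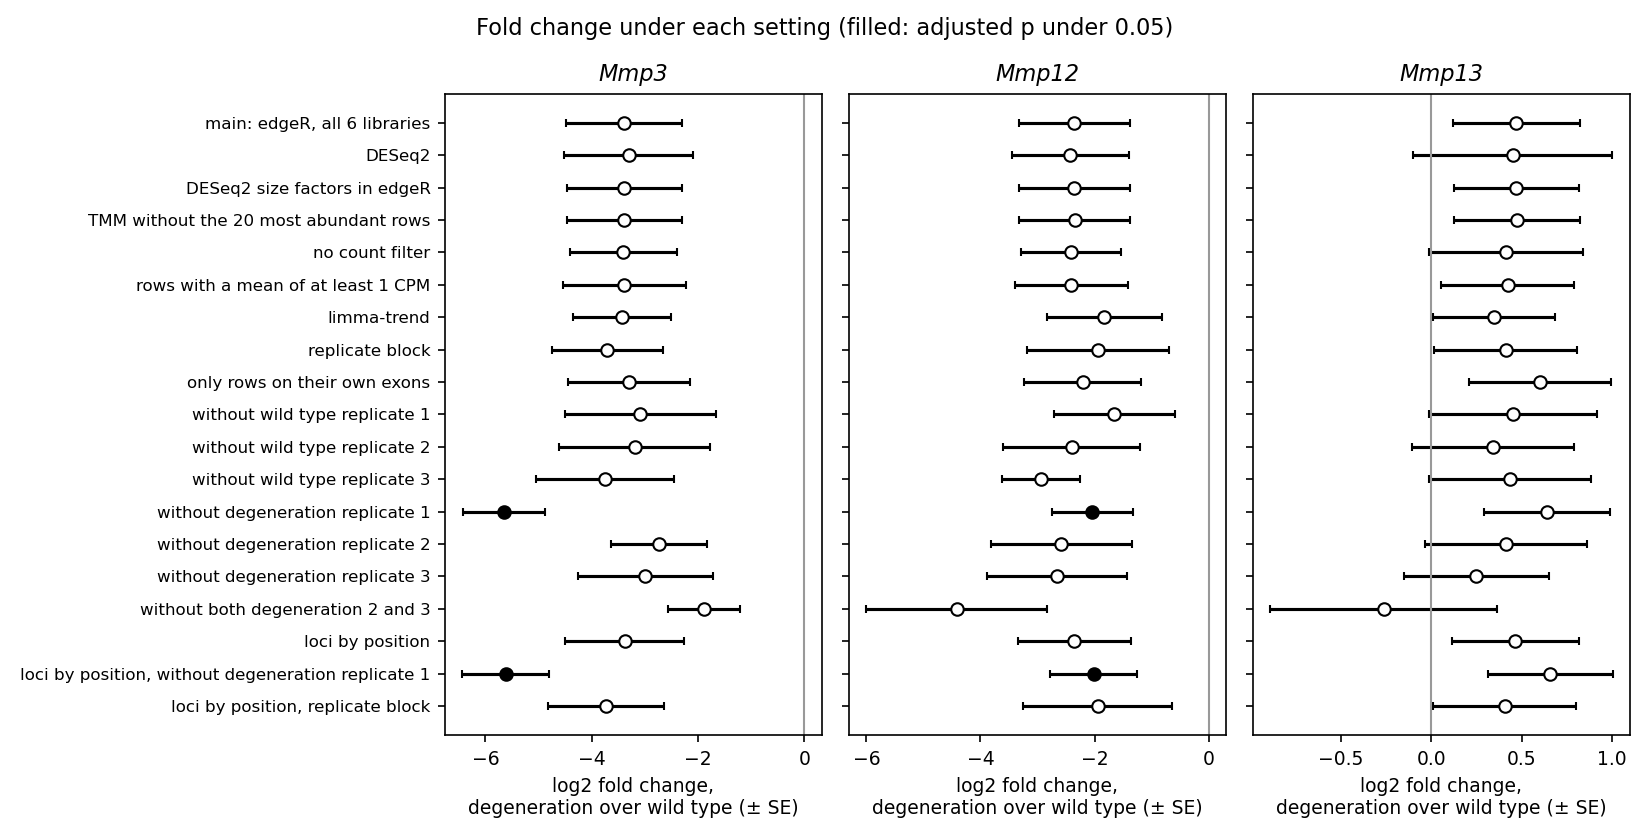
Log2 fold change, degeneration over wild type (x axis), with its SE as bars, of Mmp3, Mmp12 and Mmp13 (panels) in each fit (y axis); filled points have an adjusted p under 0.05. Mmp3 and Mmp12 lie below 0 in all 19 fits and are filled in 2, and Mmp13 lies on either side of 0 and is filled in none.

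Genes flanking the cluster were not uniformly lower in degeneration. Of 17 listed neighbours on proximal chromosome 9, 16 could be located and 14 entered the test, and none was called (0.0% of 5434 loci). Their median log2 fold change was -0.30, beside -0.00025 over all loci tested. In 6 of the 14 every degeneration library was below every wild type library, and in 1 every one was above, against 9.39% and 11.6% of all loci tested. Without degeneration 1, 7 were called lower and 4 higher of 16 tested, in a fit that called 53.0% of loci (26.2% lower).

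The 6 that lay wholly lower were Casp1, Casp4, Casp12, Pdgfd, Ddi1 and Cntn5, singled out after their values were seen. Casp1, the caspase that matures interleukin 1 beta, was at 19.0, 20.4 and 19.3 CPM in wild type and 8.19, 7.53 and 7.05 CPM in degeneration. The nearest listed genes on either side were chosen by position, also after their values were seen. Dcun1d5, a neddylation factor, ran from 91.9 to 134 CPM over the 6 libraries. Tmem123, a membrane protein, was at 177, 140 and 167 CPM in wild type and 182, 183 and 191 CPM in degeneration. On CPM it was the 1 neighbour that lay wholly higher. Under the scaling of the test (TMM) the log2 fold change of Tmem123 was -0.0046 (adjusted p 0.989, edgeR), so it was not higher there. Birc2, an inhibitor of apoptosis, ran from 185 to 237 CPM, and Yap1, the coactivator of the Hippo pathway, from 310 to 409 CPM. Dync2h1, the heavy chain of the motor of cilia, was at 117, 116 and 147 CPM in wild type and 123, 682 and 738 CPM in degeneration, and Arhgap42 at 133, 123 and 107 CPM against 102, 321 and 356 CPM. The high values of Dync2h1 and Arhgap42 stood in degeneration 2 and 3.

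**Figure D4:**
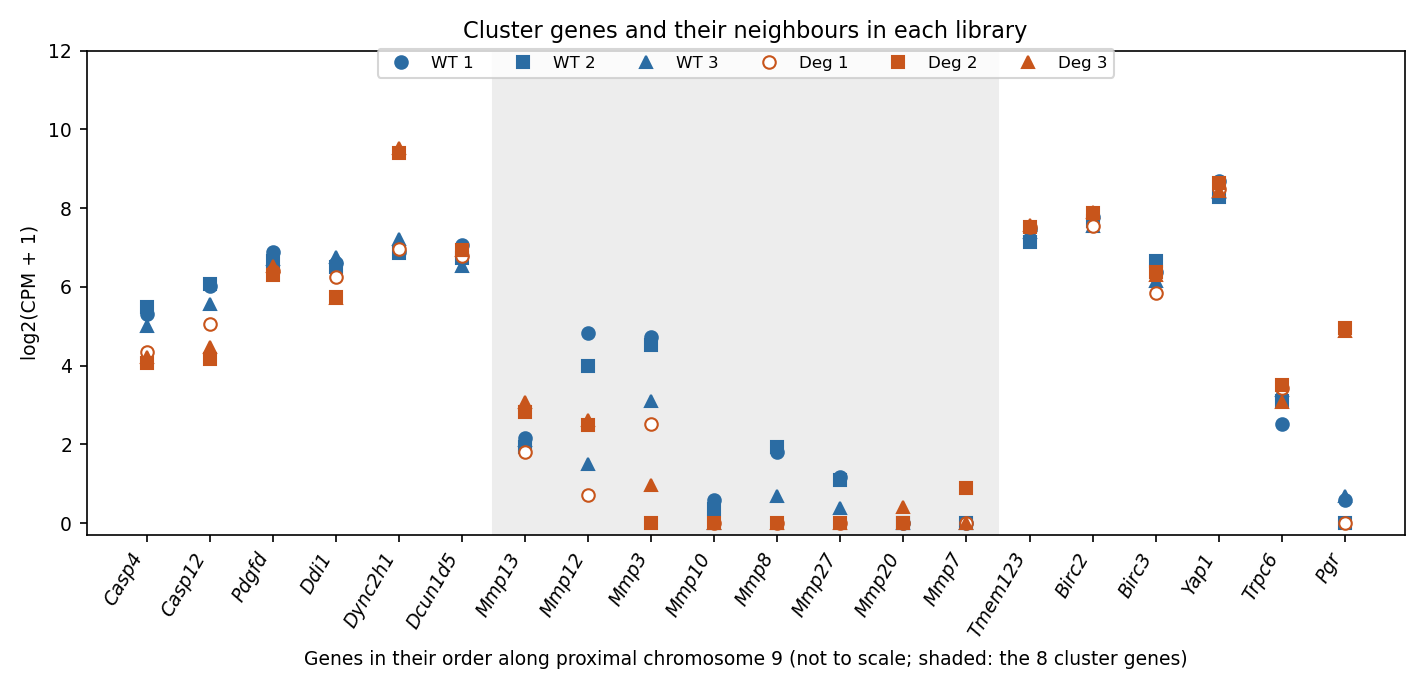
Level as log2(CPM + 1) (y axis) of the 8 cluster genes (shaded) and of neighbours on either side, in their order along chromosome 9 (x axis, not to scale), with 1 point per library (blue, wild type; orange, degeneration; open, degeneration 1). Dcun1d5 and Tmem123 at the edges of the cluster stay between 91.9 and 191 CPM in all 6 libraries, while Mmp3 runs from 0 to 25.7 CPM.

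The rows most like each member in their course over the 6 libraries were taken from 462 rows on their own exons. For Mmp3 these were Casp12 (Pearson correlation of log2(CPM + 1) 0.991), Impdh1 (0.991) and Gm11839 (0.990). Casp12, a caspase gene on chromosome 9 from 5345430 to 5373032, was at 64.1, 66.0 and 46.4 CPM in wild type and 32.1, 17.1 and 21.2 CPM in degeneration. For Mmp13 they were Xpa, a DNA repair gene (0.992), Ptbp3, an RNA-binding protein (0.987), and Ubxn2b (0.987). Xpa was at 37.2, 30.2 and 32.9 CPM against 29.3, 59.7 and 63.8 CPM. For Mmp12 they were Kif5b, a kinesin (0.935), Fam219a (0.884) and Snd1 (0.873), none of which has its 15.3-fold range within wild type. The points are 6 libraries whose depth and marker content are shared by all rows, so these values are a description only.

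Other genes of the protease system were sparsely located. The levels that follow are by position, over a part of each gene's exons, and can be compared between libraries but not between genes. Of 15 other matrix metalloproteinases 4 could be located, 1 was tested and none was called. Mmp1a and Mmp1b, the cluster's remaining genes, had no count. Mmp16, a membrane-bound member, was at 12.2, 9.23 and 7.54 CPM in wild type and 9.13, 8.11 and 5.13 CPM in degeneration (log2 fold change -0.55 ± 0.37, adjusted p 0.431, edgeR). Mmp19 was at 5.99, 9.23 and 2.11 CPM against 0.630, 0.869 and 1.60 CPM and did not pass the count filter. Without degeneration 1 both entered the test and both were called lower, in the fit that called 53.0% of loci.

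Of 8 inhibitors 5 could be located, 4 were tested and none was called, with a median log2 fold change of -0.08. Timp2, a tissue inhibitor, was at 67.1, 59.8 and 77.8 CPM in wild type and 82.2, 64.3 and 92.3 CPM in degeneration. Reck, a membrane-anchored inhibitor, was at 39.9, 35.8 and 50.6 CPM against 53.5, 67.8 and 84.0 CPM, the 1 inhibitor with every degeneration library above every wild type library, against 11.6% of all loci tested. Without degeneration 1, 1 of the 4 inhibitors tested was called lower, in the fit that called 53.0% of loci (26.2% lower). Serpine2 was at 46.6, 45.9 and 26.2 CPM against 35.6, 42.3 and 44.9 CPM. Of 8 activating proteases 2 could be located and none was tested.

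Of 18 regulators 6 could be located, 5 were tested and none was called, with a median log2 fold change of -0.86. Without degeneration 1, 4 of 6 tested were called lower (Osmr, Ets1, Ets2 and Fos, the last named after its values were seen). That fit called 53.0% of loci (26.2% lower). Osmr, the oncostatin M receptor subunit, was at 135, 137 and 85.9 CPM in wild type and 92.3, 40.0 and 39.1 CPM in degeneration. Junb, a subunit of AP-1, was at 33.7, 55.6 and 19.6 CPM against 21.1, 41.7 and 61.9 CPM. Ets1 and Ets2, transcription factors of the ETS family, had every degeneration library below every wild type library (adjusted p 0.236 for each, edgeR), against 9.39% of all loci tested. Ets1 was at 86.5, 104 and 92.8 CPM against 66.7, 29.6 and 31.4 CPM, and Ets2 at 44.1, 41.4 and 50.6 CPM against 35.9, 25.2 and 23.4 CPM.

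Of 11 substrates 6 could be located and 5 were tested, and none was called, with a median log2 fold change of -1.17. Without degeneration 1 all 5 were called lower, in the fit that called 26.2% of loci lower. In 4 of the 5 every degeneration library was below every wild type library, against 9.39% of all loci tested. Col1a1, a chain of type I collagen, was at 629, 284 and 146 CPM in wild type and 128, 54.2 and 67.6 CPM in degeneration (log2 fold change -2.19 ± 0.68, adjusted p 0.232, edgeR). Col1a2, the other chain, was at 1749, 832 and 448 CPM against 408, 317 and 353 CPM. Fn1, fibronectin, was at 551, 275 and 202 CPM against 160, 178 and 189 CPM. Col4a1 of basement membranes was at 171, 123 and 115 CPM against 127, 61.4 and 53.5 CPM. As with Mmp12, wild type 1 was the highest and wild type 3 the lowest wild type library in all 4.

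Markers of other sources of these proteases were equally few. Of 7 fibroblast markers 5 could be located, with a summed level of 2835, 1480 and 974 CPM in wild type and 970, 609 and 737 CPM in degeneration, most of it from Col1a1 and Col1a2. None was called, and the median log2 fold change was -1.10. Without degeneration 1, 4 of the 5 were called lower (Col1a1, Col1a2, Dcn and Thy1, the last named after its values were seen). That fit called 53.0% of loci (26.2% lower). Dcn, the proteoglycan decorin, was at 259, 175 and 221 CPM in wild type and 250, 24.3 and 31.1 CPM in degeneration. Pdgfra, a growth factor receptor of fibroblasts, was at 180, 178 and 143 CPM against 169, 208 and 282 CPM. Of 4 tooth enamel markers 1 could be located, Klk4, with no count in any library.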

How the data were processed

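The deposited raw counts of 6 mouse libraries, 1 row per gene name, were used unchanged. Per the file headers, the authors made these counts with featureCounts 2.0.1 over exons joined by gene name, with no strand option. The aligner and build behind the counted reads are not given in the sources used here; mm8, mm9 and Bowtie 0.12.2 are listed per the submitters' processing notes, which do not say what each was used for. A further deposited table holds 12 value columns whose names match no sample label, and was left aside, FPKM of the cluster genes included.

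CPM is a row's count over the sum of all rows of its library. Rows were compared with GENCODE M21 exons on GRCm38 (bedtools 2.31.1, Python 3.11.15, pandas 2.3.3). The rows of Mmp10, Mmp8, Mmp27, Mmp20 and Mmp7 stood 1 base off the annotation, and gene positions are those of the annotation. Other genes were taken by position: where 1 GRCm38 gene accounted for 80% or more of the exon bases below a row, and for 100 bases or more, the row was assigned to it, and summing by gene gave 10913 loci. A gene is called located where it has such a locus. The test was edgeR 4.0.16 (R 4.3.3), quasi-likelihood, TMM, filterByExpr, all 6 libraries, no covariate, Benjamini-Hochberg adjustment over all rows or loci, threshold 0.05. It was tested on data simulated from the wild type means and spread. These lack the split of degeneration 1 from degeneration 2 and 3, so they do not show the power of the test on these libraries. Mmp8 and Mmp27, left out by the filter, had an exact permutation test over libraries (scipy 1.17.1). Wilson intervals (95%) and the floor of 3 counts account for counting error alone and not for spread between libraries. PCR copies carry no molecular identifier and are counted as separate reads, so the intervals may be too narrow.

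Alternatives were DESeq2 1.42.0, its size factors, limma-trend 3.58.1 (prior count 2), TMM without the 20 most abundant rows, other count filters, the replicate number as a block, rows on their own exons alone, each library left out, and, chosen after seeing the data, degeneration 2 and 3 left out and the fits on loci. All 8 members are named. Each list gives values for at most 4 members, those with the highest mean CPM, and for the neighbours also the nearest on each side. The rows most like a member were the 3 with the highest correlation among rows on their own exons (nuclear, not on chromosome Y, mean of at least 5 CPM), for members whose mean reached 1 CPM. The members and lists were chosen with earlier results of these data known. The values of 1 listed gene are not reported here.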

Additional observations from a re-analysis of the deposited data

How the results depend on the processing

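Calls depended on degeneration 1. edgeR called 0 of 14967 rows with all 6 libraries, and leaving out 1 replicate at a time gave 0 to 8703 rows, with 8703 without degeneration 1 and 0 without any other. DESeq2 called 969 rows, and the fit without both degeneration 2 and 3, chosen after seeing the data, called 2. On loci by position, edgeR called 0, and 3162 without degeneration 1. The other settings on rows (scaling, count filter, limma-trend, rows on their own exons) called 0. Mmp13 turned to a log2 fold change of -0.26 without both degeneration 2 and 3. Leaving out 1 replicate at a time gave log2 fold changes of -5.64 to -2.74 for Mmp3, -2.94 to -1.65 for Mmp12 and 0.25 to 0.64 for Mmp13, with Mmp3 and Mmp12 called without degeneration 1 only. With CPM on TMM-scaled totals or on totals of rows on their own exons, the differences of mean log2(CPM + 1) of Mmp3, Mmp12 and Mmp13 kept their sign. All 8 genes also passed a minimum of 50% of the row length on their own exons. With the replicate number as a block, 0 rows and 0 loci were called, and Mmp3 had a log2 fold change of -3.71 (adjusted p 0.386, edgeR). The deviations of same-numbered libraries from their group means correlated at -0.122 to 0.0992, and 2 of 6 libraries correlated best with their own number. Since degeneration 1 stood apart from degeneration 2 and 3, such deviations cannot decide whether the numbers pair the libraries. Depth limits Mmp10, Mmp7 and Mmp20, which had at most 3 counts in a library. The causes of these changes were not tested.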
